A study of Mus musculus with 2 samples.

Results

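The 10 Wnt ligand genes described here are Wnt2, Wnt4, Wnt5a, Wnt5b, Wnt6, Wnt7b, Wnt9a, Wnt10a, Wnt11 and Wnt16. They were taken by gene symbol from the 32285 gene IDs of the tables, and each symbol was found once. The data are droplet single-cell RNA counts of 1 Dll1+ and 1 Dll1- mouse mammary tumor, both untreated, from which live cells without CD45, a leukocyte surface protein, had been sorted. Dll1 is a Notch ligand held in the cell membrane. The sources used here do not give the strain, age or genotype of the mice, the driver of the tumors or the criterion for Dll1+ and Dll1-. With 1 library per group nothing below was tested: every interval is a 95% interval for counting error only, and differences between the tumors cannot be told apart from differences between any pair of tumors or libraries.

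Wnt proteins are lipid-modified ligands that are acylated by Porcn, carried to the cell surface by Wls and bound by Frizzled receptors. With the co-receptors Lrp5 and Lrp6 they stabilise beta-catenin, which acts with TCF/LEF factors on targets such as Axin2. Other Wnts, Wnt5a above all, signal through Ror and Ryk receptors without beta-catenin, and secreted Sfrp, Dkk and Wif1 proteins and the deacylase Notum limit the signal. In the mammary gland, Wnts pass between luminal, basal and stromal cells, and Wnt4 is known as a relay of progesterone.

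Promoter sequences of 4 members are shown because the UMIs of these members came mostly from different classes: those of Wnt6 from Krt5-led cells, those of Wnt16 from fibroblast-like cells, those of Wnt5b from the numerous epithelial-like cells, and those of Wnt9a from epithelial-like and fibroblast-like cells. Each is the 250 bases before a RefSeq start site on GRCm38.p6, read 5′ to 3′ on the gene's strand. Capitals mark the TCF/LEF core CTTTG or its complement CAAAG, and the core of the Notch effector RBPJ, GTGGGAA or its complement TTCCCAC, searched on both strands. The motifs do not overlap each other.
Wnt6, chr1:74771642-74771891, + strand: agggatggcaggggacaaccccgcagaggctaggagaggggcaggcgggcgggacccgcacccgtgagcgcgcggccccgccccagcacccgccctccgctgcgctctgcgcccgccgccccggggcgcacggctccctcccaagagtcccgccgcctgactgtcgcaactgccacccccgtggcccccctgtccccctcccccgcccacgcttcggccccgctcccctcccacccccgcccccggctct
Wnt16, chr6:22287977-22288226, + strand: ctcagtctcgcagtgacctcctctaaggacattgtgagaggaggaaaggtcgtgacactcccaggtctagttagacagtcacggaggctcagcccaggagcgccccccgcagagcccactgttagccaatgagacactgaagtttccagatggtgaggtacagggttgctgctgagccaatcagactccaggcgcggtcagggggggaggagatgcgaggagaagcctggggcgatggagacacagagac
Wnt5b, chr6:119544348-119544597, - strand, first start site: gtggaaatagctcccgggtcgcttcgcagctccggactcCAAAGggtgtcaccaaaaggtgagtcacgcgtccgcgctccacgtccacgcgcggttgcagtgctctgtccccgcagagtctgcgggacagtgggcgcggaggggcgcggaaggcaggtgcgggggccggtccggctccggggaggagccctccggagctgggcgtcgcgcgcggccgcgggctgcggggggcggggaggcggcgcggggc
Wnt9a, chr11:59306680-59306929, + strand: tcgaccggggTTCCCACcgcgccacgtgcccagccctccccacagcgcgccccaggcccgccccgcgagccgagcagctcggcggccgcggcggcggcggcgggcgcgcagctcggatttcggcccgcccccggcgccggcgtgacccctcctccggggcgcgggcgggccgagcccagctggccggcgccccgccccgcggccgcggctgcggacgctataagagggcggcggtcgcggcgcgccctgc
The RefSeq table held 10 such windows for 7 of the 10 members. A TCF/LEF core stood in 3 of these 10 windows and in 48.6% of all 32851 windows of the table. The RBPJ core stood in 1 of the 10, that of Wnt9a, and in 5.42% of all windows. The printed windows had a GC content of 79.6% for Wnt6, 59.2% for Wnt16, 75.2% for Wnt5b and 84.4% for Wnt9a, against a median of 52.4% over all windows. These are letter matches only, and the data hold no binding or chromatin measurement.

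All 10 members are protein-coding genes in the GENCODE M21 annotation of mm10. Wnt6 (chr1:74771892-74785322) and Wnt10a (chr1:74791516-74804179) lie on the + strand with 6193 bases between them and no protein-coding gene in that gap. Wnt2 (chr6:17988940-18030585, - strand), Wnt16 (chr6:22288227-22298522, + strand) and Wnt5b (chr6:119432531-119544347, - strand) share a chromosome far apart. Fbxl14 lies inside Wnt5b on the opposite strand, and the sources used here do not state whether counting used the strand. Wnt4 lies at chr4:137277489-137299726, Wnt5a at chr14:28504750-28527448, Wnt9a at chr11:59306928-59333552 and Wnt11 at chr7:98835112-98855195, all on the + strand, and Wnt7b at chr15:85535437-85582473 on the - strand.

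The Dll1+ library held 117230907 unique molecular identifiers (UMIs) in 13819 barcodes and the Dll1- library 135960457 in 13097. After filtering, 9685 and 10132 cells remained, with medians of 7882 and 9904 UMIs. Of the barcodes, 109 occurred in both libraries. Dll1 itself stood at 53.5 UMIs per 1000000 (CPM) in epithelial-like cells of the tumor labelled Dll1+ and at 3.98 where it was labelled Dll1-, in the direction of the labels. In Krt5-led cells it stood at 88.8 and 84.3 CPM. The classes were rebuilt from marker genes: epithelial-like (8218 Dll1+ and 8596 Dll1- cells), Krt5-led (332 and 315), fibroblast-like (333 and 574), pericyte-like (247 and 164) and endothelial-like (255 and 280). The Krt5-led class expressed basal and keratinocyte markers, in parts that differed among groups of its cells, and was given no cell type. In each of the other 4 classes all 8 of its own markers were found in at least 20% of its cells in both libraries. Levels (CPM) are relative to all UMIs of a class in a library, with no scaling to gene length, so a gene is compared across classes and tumors and not with another gene.

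By level among the 5 classes, 4 ligands were highest in fibroblast-like cells and 5 in Krt5-led cells of both tumors. Wnt2, Wnt9a, Wnt11 and Wnt16 were the 4 of the fibroblast-like cells. Wnt4, Wnt5a, Wnt6, Wnt7b and Wnt10a were the 5 of the Krt5-led cells, and Wnt5a was high in pericyte-like cells too. For Wnt5b the highest class was epithelial-like in the Dll1+ tumor and Krt5-led in the Dll1- tumor, and the intervals of these classes overlapped in each. The highest class was thus the same in both tumors for 9 of 10 members. Cells outside the 5 classes were not ranked, among them a Sprr1a-led group of 14 Dll1+ and 128 Dll1- cells. In that group Wnt7b stood at 149 and 61.5 CPM, above all 5 classes. Wnt5b stood there at 25.4 CPM (16.6 to 37.2) in the Dll1- tumor, against 21.1 CPM (16.2 to 26.9) in Krt5-led cells. No member was highest in pericyte-like or endothelial-like cells. For Wnt4 and Wnt7b in the Dll1+ tumor, and for Wnt5a in the Dll1- tumor, the interval of the first class overlapped that of the next.

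**Figure D1:**
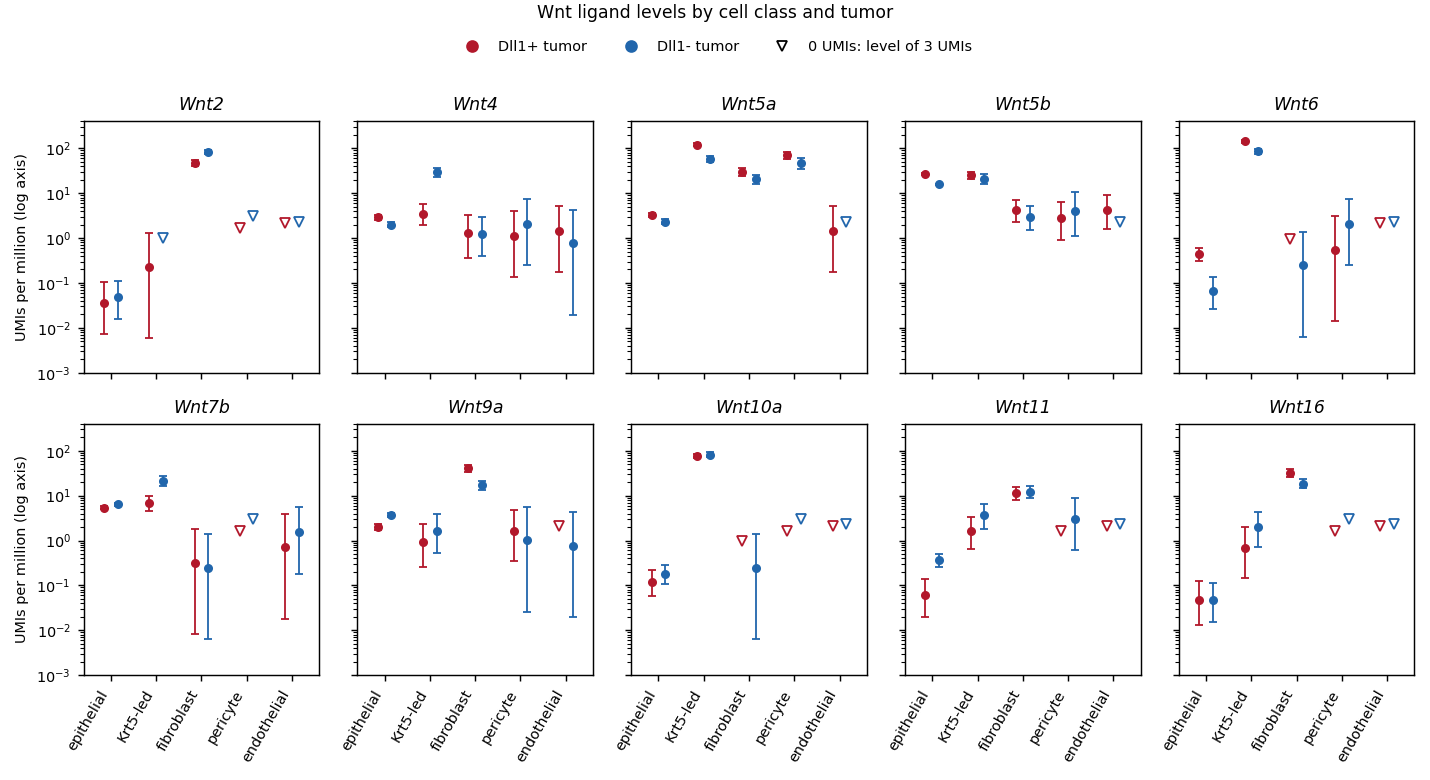
Levels of the 10 Wnt ligands in CPM (log axis) in 5 cell classes, Dll1+ tumor in red and Dll1- tumor in blue. Points are sums over all cells of a class and bars are 95% counting intervals. Open triangles stand at the level of 3 UMIs where none was counted. Wnt2 and Wnt16 stand out in fibroblast-like cells, Wnt6 and Wnt10a in Krt5-led cells, and Wnt5a in 3 classes.

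Wnt2, Wnt16, Wnt6 and Wnt10a came almost wholly from 1 class each. Fibroblast-like cells held 97.0% of the 500 Wnt2 UMIs of both libraries and 86.6% of the 201 Wnt16 UMIs. Krt5-led cells held 94.4% of the 941 Wnt6 UMIs, and of the Wnt10a UMIs 96.8% in the Dll1+ and 92.6% in the Dll1- library. These classes were 3.44% and 5.67% of cells for the fibroblast-like and 3.43% and 3.11% for the Krt5-led, in the Dll1+ and Dll1- tumor. Wnt5b, Wnt7b, Wnt4 and Wnt9a, by contrast, had 93.6%, 85.2%, 77.9% and 70.3% of their UMIs in the far more numerous epithelial-like cells. Wnt5a was spread, with 42.7% of 1643 UMIs in Krt5-led, 31.4% in epithelial-like, 10.5% in fibroblast-like and 10.4% in pericyte-like cells.

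A ratio between the tumors was read only where a member had at least 30 UMIs in a class over both libraries, which 19 of the 50 pairs of member and class reached. A ratio of at least 1.5 in either direction is called apart. Of the 19 pairs, 6 were apart with the higher level in the Dll1+ tumor and 5 with the lower. Of all genes of a class, 40.3% were apart in epithelial-like, 26.7% in Krt5-led, 15.8% in fibroblast-like and 23.3% in pericyte-like cells. No endothelial-like pair reached 30 UMIs, so 0 members were apart there, where 10.8% of 7874 genes were higher, 4.81% lower and 15.6% either.

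**Figure D2:**
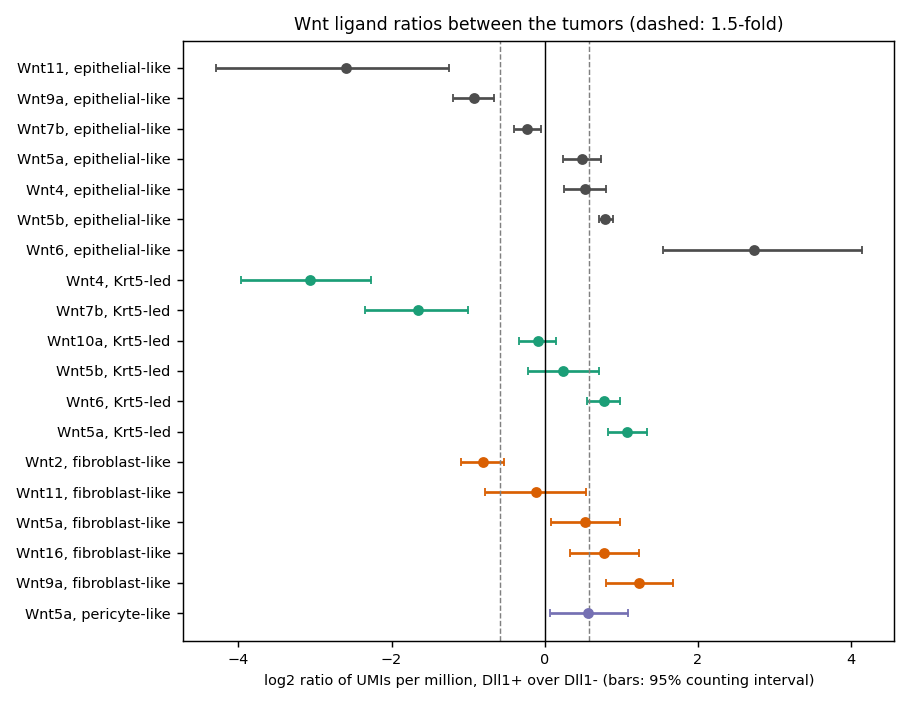
Ratio of the Dll1+ to the Dll1- level on a log2 axis for the 19 pairs of Wnt ligand and class with at least 30 UMIs. Points are ratios, bars are 95% counting intervals and dashed lines mark 1.5-fold. The lowest point is Wnt4 in Krt5-led cells at -3.07 and the highest is Wnt6 in epithelial-like cells at 2.73, which rests on 44 UMIs.

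In fibroblast-like cells, the 4 ligands highest there did not shift together: Wnt9a and Wnt16 were higher in the Dll1+ tumor, Wnt2 was lower and Wnt11 was nearly level. Of 5 members with enough UMIs, 2 were apart and higher and 1 was apart and lower, where 9.67% and 6.10% of 10135 genes of the class were (15.8% in either direction). The members' median log2 ratio was 0.53 and that of all genes 0.04.

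Wnt2, a beta-catenin-activating ligand known from lung and vascular development, stood at 47.7 CPM (interval 40.4 to 56.1, 148 UMIs) in the Dll1+ and at 83.7 CPM (75.0 to 93.2, 337 UMIs) in the Dll1- tumor. It was 1.75-fold lower in the Dll1+ tumor (1.44 to 2.14). A Wnt2 UMI was found in 18.6% of fibroblast-like cells of the Dll1+ tumor and in 31.7% of the Dll1- tumor, with median depths of 9222 and 6624 UMIs per cell. After thinning every cell to 2000 UMIs, without the 13 and 28 cells that had fewer, a Wnt2 UMI remained in 8.75% and 14.8%. In epithelial-like cells, with medians of 8004 and 10710 UMIs, the share was 0.0365% and 0.0582%. No Wnt2 UMI was found in endothelial-like cells, which allows up to 2.13 and 2.28 CPM at 3 UMIs.

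Wnt9a, a ligand known from joint formation, stood at 40.3 CPM (33.6 to 48.0) and 17.1 CPM (13.3 to 21.7), which is 2.35-fold higher in the Dll1+ tumor (1.74 to 3.20). Wnt16, known from bone and from stressed stroma, stood at 31.9 CPM (26.0 to 38.9) and 18.6 CPM (14.7 to 23.4), a ratio of 1.71 (1.26 to 2.35). Wnt11, a ligand of cell movements in the embryo, stood at 11.3 CPM (7.87 to 15.7) and 12.2 CPM (9.01 to 16.1). The intervals of the tumors did not overlap for Wnt9a, Wnt16 and Wnt2, and did for Wnt11. Wnt5a was 1.44-fold higher (1.06 to 1.97), at 29.4 and 20.4 CPM, below the size that is called apart. Among the other-class markers in these cells, the 8 epithelial markers summed to 231 and 313 CPM with none at 0, and the 8 basal markers to 251 and 132 CPM with 1 at 0. In fibroblast-like cells with less than the median share of other-class markers, Wnt2 came to a log2 ratio of -0.45, not apart. Wnt9a came to 1.83, Wnt16 to 0.62 and Wnt5a to 0.59, each apart and higher. The part of other-class markers in these ratios was not tested.

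The fibroblast-like cells held sub-states that the tumors filled unequally, each called here by 1 of its 10 leading genes. The Dpp4-led sub-state, with Pi16 and Clec3b, had 67 Dll1+ and 350 Dll1- cells, and the Tagln-led sub-state 128 and 41. The Cxcl13-led sub-state had 91 and 88 cells, and the Birc5-led sub-state 47 and 56. Inside the class the Birc5-led cells were led by mitosis genes such as Birc5, Tpx2 and Mki67. Against all cells they were led by Htra3, Mfap5 and Cthrc1, and too few cycling markers were found to call them cycling. Wnt2 was highest in the Birc5-led sub-state of both tumors, at 160 CPM (126 to 200) and 145 CPM (115 to 180). It was lowest of these 4 in the Cxcl13-led sub-state, at 7.25 and 24.6 CPM. Wnt9a was highest in the Tagln-led sub-state, at 72.0 CPM (57.8 to 88.7) and 68.4 CPM (42.3 to 105), where the tumors overlapped.

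Wnt16 was lowest in the Birc5-led sub-state of both tumors, at 8.31 and 8.92 CPM, where Wnt2 was highest. In the Cxcl13-led sub-state Wnt16 stood at 50.8 CPM (36.6 to 68.6) in the Dll1+ and 18.4 CPM (9.52 to 32.2) in the Dll1- tumor, with no overlap. With these 4 sub-states weighted alike, a setting chosen after seeing the data, Wnt9a came to a log2 ratio of 0.28 and Wnt2 to -0.30, so that neither was apart, while the class sums gave 1.23 and -0.81. Wnt16 was higher in the Dll1+ tumor in 3 of 4 sub-states, and Wnt2 was lower in 3 of 4. With each cell thinned to 2000 UMIs, Wnt16 came to a log2 ratio of 0.25 and Wnt2 to -0.57, so that neither was apart. Wnt9a came to 1.58 and Wnt5a to 1.05 after thinning, both apart.

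**Figure D3:**
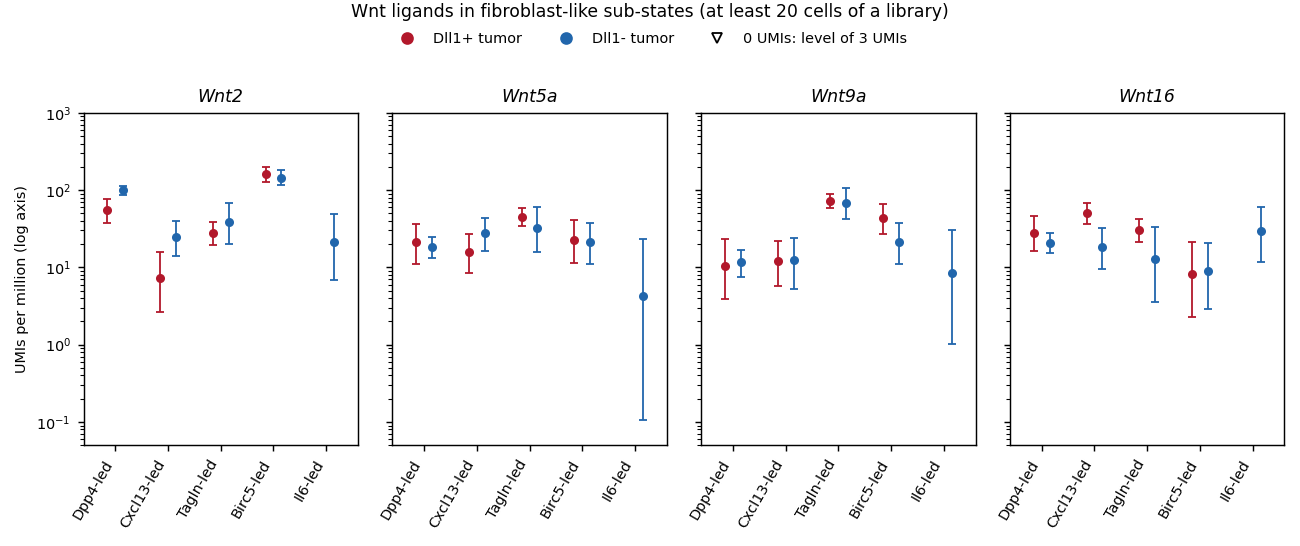
Levels of Wnt2, Wnt5a, Wnt9a and Wnt16 in CPM (log axis) in sub-states of fibroblast-like cells, Dll1+ in red and Dll1- in blue, with 95% counting intervals. A point is drawn only for a library with at least 20 cells, so the Il6-led sub-state has Dll1- cells only. Wnt2 is highest in the Birc5-led cells and Wnt9a in the Tagln-led cells of both tumors.

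Wnt16 was found in a smaller share of the fibroblast-like cells with Wnt2 than of those without. Of Dll1+ cells with a Wnt2 UMI 11.3% had a Wnt16 UMI, against 19.9% of the others, and in the Dll1- tumor the shares were 4.95% and 12.2%. For Wnt2 and Wnt9a it was the reverse, with 41.9% against 17.7% and 12.1% against 7.40%. Cells with a Wnt2 UMI were deeper than the others in both tumors, at medians of 10073 and 8960 UMIs and of 7383 and 6406.

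In Krt5-led cells, Wnt5a and Wnt6 were higher in the Dll1+ tumor, Wnt4 and Wnt7b were lower, and Wnt10a and Wnt5b were close. Of 6 members with enough UMIs, 2 were apart and higher and 2 apart and lower, where 17.7% and 9.04% of 10262 genes of the class were (26.7% in either direction). The members' median log2 ratio was 0.08 and that of all genes 0.12.

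Wnt4 had 15 UMIs or 3.46 CPM (1.94 to 5.70) in the Dll1+ and 88 UMIs or 29.0 CPM (23.2 to 35.7) in the Dll1- tumor. It was 8.38-fold lower in the Dll1+ tumor (4.81 to 15.6). A Wnt4 UMI was found in 3.31% of the Dll1+ and 16.8% of the Dll1- cells of the class, at median depths of 11330 and 9056 UMIs, against 0.784% and 0.357% of endothelial-like cells, at 4698 and 3730. It was lower in the Dll1+ tumor in each of the 3 sub-states to which both tumors gave 20 or more cells: 0 UMIs, which allow up to 5.94 CPM at 3 UMIs, against 28.7 CPM in the Hp-led cells, 5.73 against 21.8 CPM in the Foxq1-led cells and 6.98 against 34.1 CPM in the Krt1-led cells. Over the alternatives that gave a value, its log2 ratio lay between -3.40 and -2.61.

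Wnt7b, a ligand of lung and kidney development, stood at 6.69 CPM (4.48 to 9.60) in the Dll1+ and 21.1 CPM (16.2 to 26.9) in the Dll1- tumor, 3.15-fold lower (2.00 to 5.07). It was lower in 2 of 3 shared sub-states and stood at 15.3 and 13.1 CPM in the Foxq1-led cells. Over the shared sub-states together it was 1.94-fold lower (1.06 to 3.81), and with them weighted alike its log2 ratio was -0.84 against -1.66. Wnt5a stood at 121 CPM (111 to 132) and 57.6 CPM (49.4 to 66.8), 2.11-fold higher (1.77 to 2.52). It was detected in 63.0% and 34.6% of the cells, and in 18.8% and 10.5% after thinning to 2000 UMIs. Wnt5a was higher in the Dll1+ tumor in 3 of 3 shared sub-states, among them at 149 and 64.1 CPM in the Foxq1-led and 72.2 and 63.1 CPM in the Krt1-led cells. In the last of these the intervals overlapped. The contractile Myh11-led sub-state, with 128 Dll1+ and 5 Dll1- cells, stood at 144 CPM (126 to 165) in the Dll1+ tumor.

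Wnt6 and Wnt10a, the neighbours on chromosome 1, are ligands of skin and its appendages. Wnt6 stood at 145 CPM (134 to 157) and 85.2 CPM (75.2 to 96.3), 1.70-fold higher in the Dll1+ tumor (1.47 to 1.97). Wnt10a stood at 77.0 CPM (69.0 to 85.7) and 82.0 CPM (72.1 to 92.8), a ratio of 0.939 (0.795 to 1.11). The Wnt6 ratio ended below 1.5 under a finer clustering at resolution 1.2, with a log2 ratio of 0.56, with cells thinned to 2000 UMIs, with 0.43, and with sub-states weighted alike, with 0.33. Its level varied widely inside the class: 231 and 159 CPM in the Foxq1-led cells, 23.7 and 60.9 CPM in the Hp-led cells, and 27.9 and 5.05 CPM in the Krt1-led cells that express keratinocyte genes. In the smallest sub-state, 4 Dll1+ and 12 Dll1- cells led by Bmp4, Bmp2, Lef1 and Axin2, Wnt6 stood at 657 CPM (437 to 950) and 517 CPM (380 to 687). Wnt6 was itself among the genes that lead that sub-state and the Foxq1-led one against all cells, so these levels are descriptions.

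Wnt10a was found in a larger share of the cells with Wnt6 than of those without. Of cells with a Wnt6 UMI, 58.7% had a Wnt10a UMI in the Dll1+ tumor against 32.0% of the others, and 63.2% against 27.8% in the Dll1- tumor. Cells with Wnt6 were also deeper, at 13531 against 9339 UMIs in the Dll1+ and 9847 against 8928 in the Dll1- tumor. In the class as a whole, the 8 fibroblast markers summed to 1280 CPM in the Dll1+ tumor, with 1 at 0, and to 414 CPM in the Dll1- tumor. The 5 neutrophil markers summed to 53.0 and 324 CPM, with 2 and 3 at 0, and the 8 basal markers to 12030 and 9865 CPM. Their part in the ratios was not tested.

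**Figure D4:**
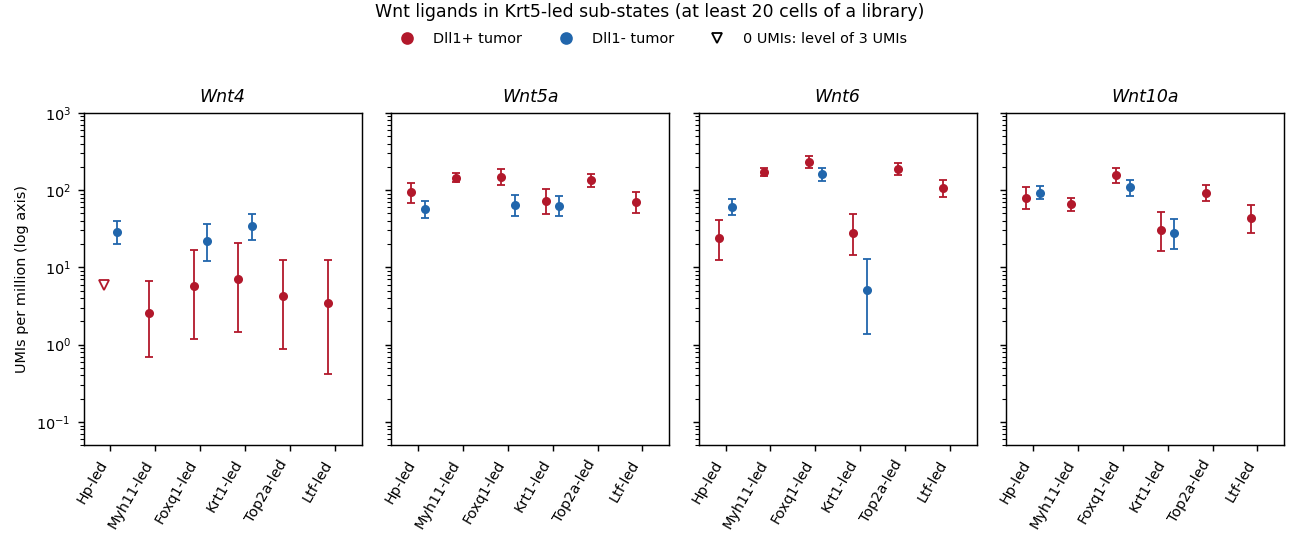
Levels of Wnt4, Wnt5a, Wnt6 and Wnt10a in CPM (log axis) in sub-states of Krt5-led cells, Dll1+ in red and Dll1- in blue, with 95% counting intervals and only libraries with at least 20 cells. The open triangle is the level of 3 UMIs where Wnt4 had none. Wnt4 is lower in the Dll1+ tumor in the 3 sub-states with both libraries, and Wnt6 is lowest in the Krt1-led cells of the Dll1- tumor.

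In epithelial-like cells Wnt5b, a close relative of Wnt5a, was higher in the Dll1+ tumor and Wnt9a was lower, while Wnt4, Wnt5a and Wnt7b lay within 1.5-fold. Of 7 members with enough UMIs, 2 were apart and higher and 2 apart and lower, where 30.9% and 9.42% of 15220 genes of the class were (40.3% in either direction). The members' median log2 ratio was 0.49 and that of all genes 0.28, so a shift of all genes lies under these values. Scaled with TMM factors or centred on that median, 1 was apart and higher and 2 apart and lower.

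Wnt5b stood at 27.2 CPM (26.1 to 28.3, 2255 UMIs) and 15.7 CPM (14.9 to 16.4, 1636 UMIs), a ratio of 1.73 (1.63 to 1.85). It was found in 18.8% and 15.2% of the cells, and in 6.19% and 3.10% after thinning to 2000 UMIs, against 2.35% and 0% of endothelial-like cells unthinned. Its log2 ratio of 0.79 was 0.53 with TMM factors and 0.52 after centring, under the size called apart. Wnt9a was 1.91-fold lower in the Dll1+ tumor (1.58 to 2.30), at 1.98 and 3.76 CPM, opposite in direction to fibroblast-like cells. Wnt7b was close, at 5.43 and 6.36 CPM, and Wnt4 and Wnt5a were 1.44-fold and 1.40-fold higher, at 2.90 and 2.01 CPM and at 3.28 and 2.34 CPM.

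For Wnt4, Wnt5a and Wnt7b the class sums differed from the values inside clusters. Of 8218 Dll1+ cells, 6741 lay in 4 clusters, led by Prpmp5, Ptn, Fgfbp1 and Spp1, that held 16 Dll1- cells, and a cluster mostly of 1 library may be that library rather than a cell state. The other 1477 Dll1+ cells shared 5 clusters with 8580 Dll1- cells, most of which were Klk10-, Fermt1- and Wap-led. In those 5 clusters Wnt5a stood at 10.1 CPM (8.73 to 11.6) and 2.33 CPM (2.05 to 2.64), a ratio of 4.33 (3.57 to 5.25), and was higher in the Dll1+ tumor in 5 of 5. The intervals of Wnt5a overlapped in the cluster led by Nusap1, at 3.36 and 2.81 CPM. In the Prpmp5-, Ptn- and Fgfbp1-led clusters of the Dll1+ tumor it stood at 0.241, 0.385 and 0.170 CPM, and in the Spp1-led cluster at 21.9 CPM. The Wnt5a sum of this class therefore combined cells that almost lacked it with cells far above the Dll1- level.

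Wnt7b was also higher in the Dll1+ tumor in 5 of 5 shared clusters although the class sum was lower. In the Fermt1-led cluster it stood at 52.2 CPM (42.2 to 63.8) and 18.2 CPM (16.6 to 19.8), and in the Klk10-led cluster at 6.72 and 4.72 CPM. In the Wap-led cluster it had only 4 and 8 UMIs. In the cluster led by Ifit3 it had 1 and 6 UMIs, at 2.48 and 2.43 CPM. Over the 5 clusters together it stood at 8.29 and 6.36 CPM, a ratio of 1.30 (1.09 to 1.55), which is not apart. With the 5 clusters weighted alike its log2 ratio was 1.30, against -0.23 in the class sum. Wnt4 turned the other way, from 0.53 in the class sum to -0.61, and was lower in 4 of 5 shared clusters. The intervals of Wnt4 overlapped in all but the Klk10-led cluster, at 0.611 and 2.85 CPM. Wnt9a was lower in 4 of 5, with overlapping intervals in all 5. In the clusters led by Nusap1 and Ifit3 it had 0 UMIs in the Dll1+ tumor, against 6 and 2 in the Dll1- tumor. In the Dll1- tumor 311 of its 393 UMIs lay in the Fermt1-led cluster, at 11.5 CPM, where the Dll1+ tumor had 7.69 CPM on 14 UMIs. In the Dll1+ tumor 69 of its 164 UMIs lay in the Prpmp5-led cluster, at 2.37 CPM, and 56 in the Fgfbp1-led cluster, at 9.54 CPM. Wnt5b was higher in 5 of 5, with overlapping intervals in the clusters led by Wap, Nusap1 and Ifit3.

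**Figure D5:**
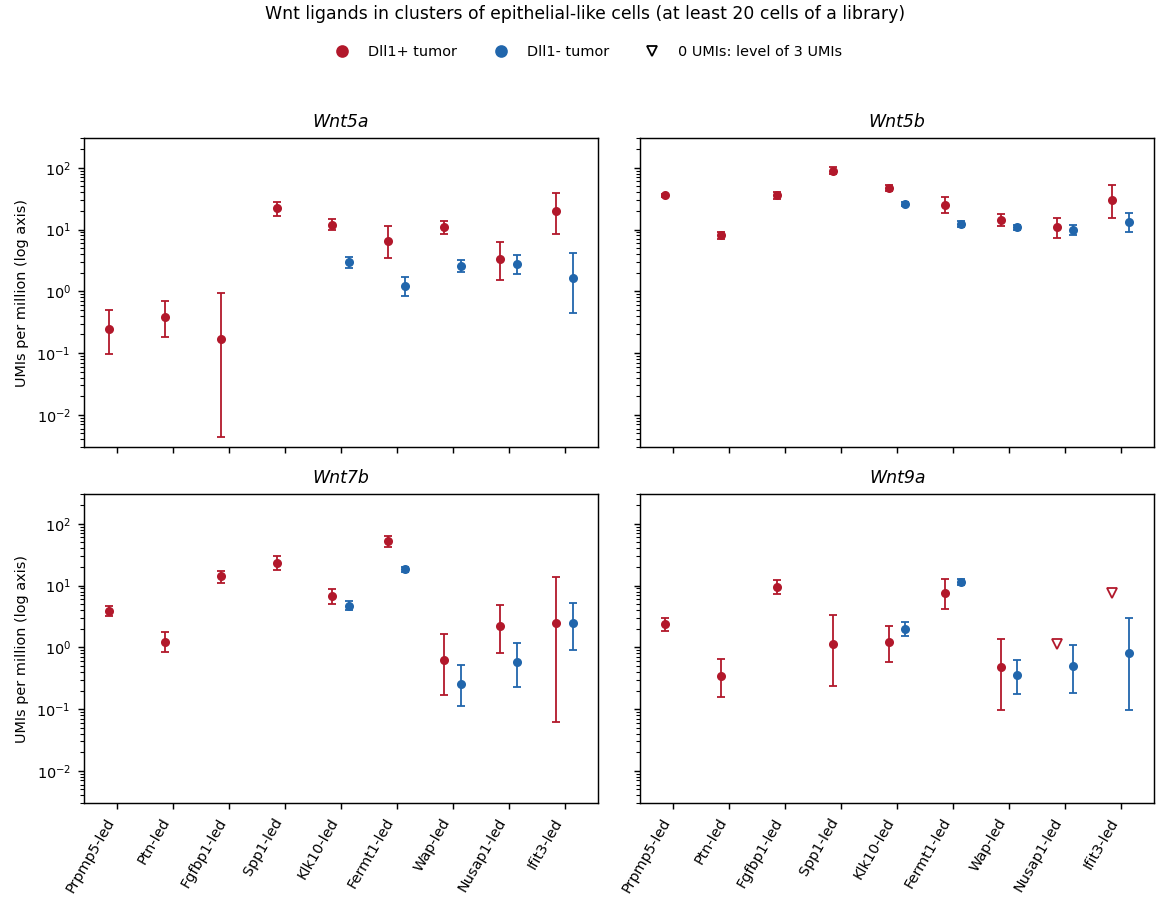
Levels of Wnt5a, Wnt5b, Wnt7b and Wnt9a in CPM (log axis) in 9 clusters of epithelial-like cells, Dll1+ in red and Dll1- in blue, with 95% counting intervals and only libraries with at least 20 cells. Open triangles are the level of 3 UMIs where none was counted. Wnt5a is under 1 CPM in 3 clusters of the Dll1+ tumor and above the Dll1- level in the 5 clusters of both.

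Wnt6 in epithelial-like cells, at 0.446 CPM (37 UMIs) and 0.0670 CPM (7 UMIs), and Wnt11, at 0.0602 CPM (5 UMIs) and 0.364 CPM (38 UMIs), passed the 1.5-fold size on few counts. Both lay far under their level in the class where they were highest. The 8 basal markers summed to 407 and 248 CPM in this class and the 8 fibroblast markers to 80.9 and 23.5 CPM, none of them at 0, and their part in these values was not tested. With clusters weighted alike the Wnt11 log2 ratio changed sign to 0.18. A small group kept apart from the classes, 14 Dll1+ and 128 Dll1- cells led by Sprr1a and keratin genes, had the highest Wnt7b level, at 149 CPM (95.2 to 221, 24 UMIs) and 61.5 CPM (47.2 to 78.7, 63 UMIs).

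In pericyte-like cells only Wnt5a had enough UMIs, at 69.4 CPM (57.8 to 82.7) and 46.9 CPM (34.3 to 62.5), a ratio of 1.48 (1.05 to 2.12). It was not apart by the 1.5-fold size, which 18.2% of 7903 genes of the class met in the higher direction, 5.12% in the lower and 23.3% in either. Its log2 ratio was 0.57 and the median of all genes of the class 0.16. It was found in 28.3% and 21.3% of the cells, against 0.784% and 0% in endothelial-like cells, with medians of 6527 and 5461 against 4698 and 3730 UMIs. After thinning to 2000 UMIs, Wnt5a was found in 8.47% and 8.33% of the pericyte-like cells, and its log2 ratio was 0.29. The sub-states went opposite ways: 127 CPM (93.4 to 169) and 39.8 CPM (24.9 to 60.3) in cells led by Igfbp2 and Lox, and 31.1 CPM (17.0 to 52.2) and 73.9 CPM (40.4 to 124) in cells led by Gem and Il6. The 8 fibroblast markers summed to 10639 and 15326 CPM in this class, none at 0, and the 8 pericyte markers to 9972 and 6758 CPM. Their part in the ratio was not tested. In the pericyte-like cells with less than the median share of other-class markers the log2 ratio turned to -0.15. Those markers include the 8 basal ones, at 5039 and 5726 CPM in this class. One of these, Acta2, was a leading gene, against all cells, of the sub-state led by Igfbp2 and Lox. This choice of cells may therefore also sort them by sub-state, which was not tested.

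The 10 members were set beside the other genes by the correlation of log2(CPM + 1) over the 10 sums of class and library, which share libraries and are no test. The most like genes of Wnt6 were Krt5, Wnt10a and Csta1 (r = 0.981, 0.980 and 0.979) and those of Wnt10a Csta1, Sptssb and Robo2 (0.999, 0.998 and 0.996). Those of Wnt2 were Gabra3, Sfrp4 and Adam23 (0.999, 0.998 and 0.998), and those of Wnt16 were Sdk1, Gxylt2 and Il1rl1 (0.986, 0.983 and 0.981). Wnt5a was most like Ryk, a Wnt5a receptor gene, Ndrg2 and Mtcl1 (0.964, 0.963 and 0.951). Wnt7b was most like Pdzk1ip1, Ubl5 and Hcar2, Wnt5b like Klc3, Auts2 and Tst, Wnt4 like Cysrt1, Krt6b and Epgn, Wnt9a like Cldn10, Adamts15 and Ret, and Wnt11 like Ahnak2, Scrn1 and Adora2b, with r from 0.948 to 0.985. Among members, Wnt2 correlated with Wnt16 at 0.95 and with Wnt9a at 0.91, and Wnt6 with Wnt10a at 0.98.

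The remaining Wnt genes were rare. Of 9 other Wnt ligands only Wnt10b reached 30 UMIs in a class. It stood at 13.2 and 13.4 CPM in fibroblast-like cells, a ratio of 0.986 (0.640 to 1.51), and at 0.145 and 0.259 CPM in epithelial-like cells. Wls, the Wnt carrier, stood at 50.4 and 49.8 CPM in epithelial-like and 231 and 172 CPM in fibroblast-like cells.

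In fibroblast-like cells 3 of 5 measured antagonists were apart and higher in the Dll1+ tumor and 2 lower, where 9.67% and 6.10% of all genes of the class were: Sfrp2 at 2607 and 746 CPM, Sfrp1 at 650 and 207 CPM and Dkk3 at 75.5 and 20.9 CPM, with Sfrp4 lower at 237 and 377 CPM. Sfrp proteins are secreted and bind Wnts. In epithelial-like cells Sfrp1 stood at 36.7 and 2.12 CPM, 17.4-fold higher in the Dll1+ tumor on 3050 and 221 UMIs. In Krt5-led cells Wif1, which binds Wnts outside the cell, stood at 518 and 143 CPM, and Notum at 60.2 and 13.8 CPM, 4.35-fold higher in the Dll1+ tumor (3.13 to 6.18). Wif1 was among the leading genes, against all cells, of the Myh11-led sub-state with 128 Dll1+ and 5 Dll1- cells. All these values are class sums over clusters or sub-states that the tumors filled unequally. Values inside the shared ones were not computed for these genes.

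Among receptors in fibroblast-like cells, 4 of 6 measured Frizzled genes were apart and higher in the Dll1+ tumor, where 9.67% of all genes of the class were, among them Fzd1 at 68.7 and 40.8 CPM and Fzd2 at 101 and 63.4 CPM. In pericyte-like cells Fzd4 stood at 88.9 and 26.5 CPM and Fzd1 at 15.6 and 63.2 CPM, in opposite directions. Of the co-receptors, Lrp6 stood at 97.4 and 48.9 CPM in epithelial-like cells and Ptk7 in fibroblast-like cells at 23.9 and 7.95 CPM. Of 6 measured genes of R-spondins and their receptors in epithelial-like cells, 3 were apart and higher in the Dll1+ tumor and 3 lower. Of all genes of the class, 30.9% were higher and 9.42% lower. Among the lower, the receptors Lgr6 and Lgr4 were 4.11-fold (3.78 to 4.48) and 2.40-fold (2.27 to 2.53) lower, at 7.66 and 31.5 CPM and at 21.1 and 50.5 CPM. In Krt5-led cells Lgr6 was higher instead, at 188 and 101 CPM. The receptor values are likewise class sums over clusters or sub-states that the tumors filled unequally.

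Of the targets and feedback genes of beta-catenin, 5 of 9 measured in epithelial-like cells were apart and lower in the Dll1+ tumor and 2 higher, where 9.42% and 30.9% of all genes of the class were, with a list median log2 ratio of -1.11 against 0.28 over all genes. Axin2, a feedback inhibitor and usual readout of the pathway, stood at 2.29 and 14.1 CPM, and Nkd2, which binds Dvl proteins, was 4.28-fold lower (3.89 to 4.72), while Ccnd1 was higher at 466 and 139 CPM and Myc at 52.6 and 28.9 CPM. These are class sums over clusters that the tumors filled unequally, and values inside the shared clusters were not computed for these genes. In Krt5-led cells 5 of 9 were apart and higher and 0 lower, where 17.7% and 9.04% of all genes of the class were, with a list median of 0.71 against 0.12. Nkd1 stood there at 42.4 and 11.8 CPM and Nkd2 at 275 and 127 CPM, while Axin2 stood at 29.7 and 44.1 CPM. In fibroblast-like cells 1 of 5 was apart and higher and 1 lower, where 9.67% and 6.10% of all genes were.

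Of the intracellular core, Ctnnb1, which encodes beta-catenin, stood at 401 and 199 CPM in epithelial-like and 352 and 219 CPM in Krt5-led cells, and 3 of 10 genes of the list were apart and higher in each of these classes. In epithelial-like cells that is close to the 30.9% of all genes, and in Krt5-led cells the share of all genes was 17.7%. None of the 10 was apart in fibroblast-like or pericyte-like cells, where 15.8% and 23.3% of all genes of the class were. Of the planar polarity partners, Vangl2 in Krt5-led cells was apart and lower, at 14.5 and 22.4 CPM, and Prickle1 in fibroblast-like cells apart and higher, at 31.0 and 18.1 CPM. The values in this paragraph, too, are class sums over clusters or sub-states that the tumors filled unequally.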

How the data were processed

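Droplet single-cell RNA counts of 1 Dll1+ and 1 Dll1- tumor were used, made with 10x version 3 chemistry per the labels' protocols. The deposited values are raw UMI counts per gene and barcode from Cell Ranger 4.0.0, per the file headers, on mm10, per the submitters' processing notes. Barcodes were kept with at least 1000 UMIs, 500 genes and at most 20% mitochondrial UMIs. Scrublet's automatic threshold marked 1 barcode in each library, too few to have worked, so the highest scores were removed at 0.8% per 1000 barcodes (896 and 989). Cells were clustered with scanpy 1.11.5 and leidenalg 0.10.2 (2000 genes, 30 components, 15 neighbours, resolution 0.6; sub-states 0.4) without integration and named from marker lists. Names of sub-states and of the Krt5-led and Sprr1a-led groups were set after the data were seen. Sub-states led by markers of another class (90 and 23 cells) were left out. CPM intervals are exact Poisson, shares exact Clopper-Pearson, ratios exact conditional binomial. TMM factors came from edgeR 4.0.16. The ratio step was checked on simulated data.

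The members and lists were chosen with earlier results of these data known. Named genes were all 10 members, up to 4 genes per pathway list and class that reached 20 CPM and 1.5-fold, by size, and the 3 most like genes. A few further pathway genes (Wnt10b, Wls and Axin2) were named outside this rule after their values were seen. Of the gene IDs, 32158 (99.6%) were found in GENCODE M21.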

Additional observations from a re-analysis of the deposited data

How the results depend on the processing

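Of 216 member ratios recomputed under other settings, 180 moved by less than the counting interval, 35 moved further and 1 that was apart changed sign, Wnt11 in epithelial-like cells at 0.18 with sub-states weighted alike, a setting chosen after seeing the data. Ratios that were not apart changed sign under some setting for 5 pairs. With sub-states weighted alike, these were Wnt4 (-0.61) and Wnt7b (1.30) in epithelial-like cells and Wnt10a in Krt5-led cells (0.22). In the cells with less than the median share of other-class markers, these were Wnt5a in pericyte-like cells (-0.15), Wnt11 in fibroblast-like cells (0.09) and again Wnt10a (0.04). Members apart in epithelial-like cells, 4 as reported, numbered 2 with CPM + 1, with a minimum of 100 UMIs and with cells thinned to 2000 UMIs, and 1 in the cells with less than the median share of other-class markers. In Krt5-led cells, 4 as reported, they numbered 7 with no minimum and 1 after thinning, where 3 members still had 30 UMIs. In fibroblast-like cells, 3 as reported, they numbered 1 with sub-states weighted alike, 4 with doublets left in and 2 after thinning. After thinning, 2 were higher and 0 lower. In the fibroblast-like cells with less than the median share of other-class markers, 3 were higher and 0 lower. In pericyte-like cells, 0 as reported, they numbered 1 with doublets left in, 1 with sub-states weighted alike and 3 with no minimum. In endothelial-like cells, 0 as reported, they numbered 1 with doublets left in and 3 with no minimum. The cause of these moves was not tested, other than that no minimum, a higher minimum and thinning change how many members are measured. Members highest in the same class in both libraries numbered 9 as reported and from 7 to 10 otherwise. No paired analysis was possible because each group has 1 library.

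Intervals cover counting error only, and no difference between the tumors has a replicate. Members with few UMIs, Wnt6 and Wnt11 in epithelial-like cells above all, are limited by depth.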
